A study of Homo sapiens with 12 samples.

Results

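The genes described are 10 regulators of the G1 phase of the cell cycle, taken by name from the 57773 genes of a deposited table of read counts: the CIP/KIP inhibitors CDKN1A, CDKN1B and CDKN1C, the INK4 inhibitors CDKN2C and CDKN2D, the D cyclins CCND1, CCND2 and CCND3, and the stress genes GADD45A and GADD45B. They were chosen for their function and not by a threshold on their values, but with earlier results of these data known. All 10 passed the filter on low counts, which left 20571 genes for testing. RNA was sequenced from MDA-MB-231, a human triple-negative breast cancer line, in 4 groups of 3 libraries: cells given TGFβ together with alisertib for 48 h, cells given TGFβ for 48 h, cells given alisertib for 48 h, and untreated cells. TGFβ is a cytokine whose receptors activate SMAD transcription factors, and alisertib is a small molecule that blocks Aurora A, a kinase of mitosis. No dose, and no vehicle or time in culture for the untreated cells, is stated in the sources used here. An effect of time in culture therefore cannot be told apart from treatment in comparisons with untreated cells. All libraries come from 1 line, so no other cell background was compared. The labels do not say whether libraries of 1 group stem from separate cultures; p-values therefore cover the spread among these libraries alone, which may be technical.

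Progress through G1 is driven by D cyclins bound to the kinases CDK4 and CDK6, which phosphorylate the retinoblastoma protein and free E2F factors to switch on S phase genes. INK4 proteins bind CDK4 and CDK6 and keep the D cyclins off, whereas CIP/KIP proteins bind the assembled complexes of cyclin and kinase and block above all those of CDK2. In epithelial cells TGFβ is known to arrest growth in G1 partly by raising CDK inhibitors, and many carcinoma lines have lost that arrest while keeping other TGFβ responses. GADD45 proteins are small stress-induced proteins that bind CDK1, the sliding clamp PCNA and the kinase MAP3K4. MDA-MB-231 lacks the locus of CDKN2A and CDKN2B, 2 further INK4 genes.

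Total counts ran from 93701658 to 120619368 over the 12 libraries. The labelled line was checked against its markers: VIM, CD44 and AXL, which mark its mesenchymal-like state, ran from 617 to 2133 CPM over the 12 libraries, ESR1 and PGR, the hormone receptor genes, had at most 4 counts in any library, and CDKN2B had 0 counts in all 12. Of the other luminal markers KRT19 was not low, at 77.9 to 195 CPM, while GATA3 had 3.35 to 7.58 CPM and CDH1 1.55 to 5.88 CPM. Of the markers of other cell types PTPRC, CD3E, CDH5 and DCN had at most 18 counts and PDGFRA at most 30, while CD14, a leukocyte gene, had 70 to 299, KDR, an endothelial gene, 100 to 320, and LUM, a fibroblast gene, 89 to 245. The summed level of the 4 leukocyte markers was 0.682 to 0.938 CPM in the libraries with TGFβ, against 1.34 to 3.05 CPM in those without, that of the 2 endothelial markers 0.937 to 1.63 against 2.15 to 3.26 CPM, and that of the 3 fibroblast markers 1.39 to 2.41 against 0.889 to 1.68 CPM; their part in the results was not tested. In every group 1 library deviated from the other 2: library 10 of cells given both agents, 6 of TGFβ, 9 of alisertib and 1 of untreated cells. Their deviations from the group means correlated with each other at 0.71 to 0.86 across 11306 genes over 5 CPM, a description over genes of libraries that share their groups' means. The same deviations ran against the GC content of the gene, with Spearman's rho of -0.785 to -0.723 across 11083 genes. GC content of the 10 genes was 45.5% (CCND2) to 63.8% (CDKN1C), against a median of 47.5% over all genes above 5 CPM. Because these 4 libraries touch every comparison, results for the 10 genes are given with all 12 libraries. Where a call differs, they are also given without the 4 and with the shared component of the 4 as a covariate. That component was estimated from the residuals of the same libraries, so p-values of the covariate fit are too small. The 4 libraries were likewise picked by their deviations in these data, and their removal leaves 2 per group. The p-values of the fit without them can therefore be too small as well.

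Levels are given as CPM: each count relative to the size of its library, after correction by TMM factors. Fold changes are on the log2 scale with their standard error (SE), and adjusted p-values come from edgeR's quasi-likelihood test, with the Benjamini-Hochberg method applied to all 20571 genes. A gene is said to have risen or fallen at an adjusted p under 0.05.

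Promoter sequence is shown for the 2 genes with the highest TGFβ fold changes of the 10, CDKN1A and GADD45B, and for CDKN1B, a CIP/KIP gene that moved the other way. Each window runs from 250 bases before the annotated start to 50 bases after it, in RefSeq's table for GRCh38.p14, which held 6 of the 10 genes in 10 windows. Capitals mark GGGCGG or its reverse complement, the core of the GC box bound by SP1-family factors, through which CDKN1A is known to respond to TGFβ. The CDKN1A window lies at chr6:36678464-36678763, the GADD45B window at chr19:2475877-2476176 and the CDKN1B window at chr12:12717118-12717417, all on the plus strand.
CDKN1A: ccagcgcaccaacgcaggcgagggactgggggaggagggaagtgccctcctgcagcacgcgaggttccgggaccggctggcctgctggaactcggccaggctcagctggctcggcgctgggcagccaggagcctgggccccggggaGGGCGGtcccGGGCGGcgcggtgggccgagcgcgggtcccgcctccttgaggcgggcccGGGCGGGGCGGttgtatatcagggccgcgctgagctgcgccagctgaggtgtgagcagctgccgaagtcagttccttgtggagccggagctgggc
GADD45B: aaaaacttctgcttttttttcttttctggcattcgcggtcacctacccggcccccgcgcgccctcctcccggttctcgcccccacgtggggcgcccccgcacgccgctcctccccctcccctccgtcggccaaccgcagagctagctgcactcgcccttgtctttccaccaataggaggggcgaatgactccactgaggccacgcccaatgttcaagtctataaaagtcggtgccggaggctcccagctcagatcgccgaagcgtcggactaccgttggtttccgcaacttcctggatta
CDKN1B: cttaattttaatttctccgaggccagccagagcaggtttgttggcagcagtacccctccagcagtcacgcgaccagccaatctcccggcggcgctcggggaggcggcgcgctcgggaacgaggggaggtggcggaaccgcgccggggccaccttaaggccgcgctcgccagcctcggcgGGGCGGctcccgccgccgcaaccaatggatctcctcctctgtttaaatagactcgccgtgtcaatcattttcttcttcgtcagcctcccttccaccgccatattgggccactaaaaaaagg

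The CDKN1A window held 4 matches to GGGCGG, of which the last pair share a base, the CDKN1B window held 1 and the GADD45B window none. Of the 10 windows, of which CDKN2C and CCND3 have 3 each, 7 had at least 1 match, against 45.0% of the 35116 promoter windows in the table. CAGAC, a short SMAD-binding motif, was in 3 of the 10 windows, against 45.3% of all windows, and in none of the 3 shown. The palindromic SMAD motif GTCTAGAC (0.202% of all windows), the AP-1 motif TGANTCA (7.71%) and TTTGAA, from the DREAM complex's CHR element (15.2%), were in none of the 10 windows. Both strands were searched for each motif, and a match is a description of these letters and not a bound site.

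CDKN1A encodes p21, the CIP/KIP inhibitor that TGFβ is known to induce. It was called higher in all 3 comparisons that add TGFβ. The gene (ENSG00000124762, hg19 chr6:36644305-36655116) had 229.6, 268.6 and 274.2 CPM in cells given both agents and 260.3, 265.3 and 232.8 CPM with TGFβ. It had 76.2, 75.8 and 68.0 CPM with alisertib and 53.3, 65.5 and 65.3 CPM in untreated cells. All 6 libraries with TGFβ lay above all 6 without it, the TGFβ groups overlapped, and the 3 alisertib libraries lay above the 3 untreated ones. In bulk RNA a change in the share of cells that carry a transcript and a change in its amount per cell cannot be told apart, here or for the genes that follow. The log2 fold change was 2.07 (SE 0.09, edgeR adjusted p = 2.23e-10) for both agents over untreated cells, which is 4.20-fold. For TGFβ alone it was 2.04 (SE 0.09, edgeR adjusted p = 2.52e-10, 4.12-fold), the 417th highest fold change among the genes tested. For both agents over alisertib it was 1.81 (SE 0.09, edgeR adjusted p = 1.17e-09, 3.51-fold). Adding alisertib to TGFβ gave 0.03 (95% interval -0.17 to 0.23, edgeR adjusted p = 0.960). Alisertib alone gave 0.26 (95% interval 0.05 to 0.46, edgeR adjusted p = 0.108), which did not pass. Without libraries 10, 6, 9 and 1 it was 0.22 (edgeR adjusted p = 5.95e-05), and with the covariate 0.26 (edgeR adjusted p = 8.60e-08).

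CDKN1B encodes p27, the inhibitor that holds CDK2 in check in resting cells and is removed through the ubiquitin ligase subunit SKP2. Its transcript fell where CDKN1A rose. The gene (ENSG00000111276, hg19 chr12:12867992-12875305) had 15.3, 14.8 and 14.6 CPM in cells given both agents and 14.1, 15.0 and 15.7 CPM with TGFβ. It had 21.1, 21.5 and 20.2 CPM with alisertib and 23.7, 23.8 and 24.8 CPM in untreated cells. Each library with TGFβ lay below each one without it, and the alisertib libraries lay below the untreated ones. CDKN1B fell by 0.70 on the log2 scale with both agents over untreated cells (SE 0.06, edgeR adjusted p = 4.02e-07), and by 0.69 with TGFβ alone (SE 0.06, edgeR adjusted p = 4.15e-07). It fell by 0.49 with both agents over alisertib (SE 0.06, edgeR adjusted p = 1.74e-05). With alisertib alone the log2 fold change was -0.21 (95% interval -0.34 to -0.07, edgeR adjusted p = 0.0608) and did not pass. It did without the 4 libraries (-0.19, edgeR adjusted p = 0.0232) and with the covariate (-0.20, edgeR adjusted p = 0.00241).

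CDKN1C encodes p57, the imprinted CIP/KIP gene, and was the lowest of the 3. The gene (ENSG00000129757, hg19 chr11:2904443-2907111) had 1.05, 1.78 and 0.944 CPM in cells given both agents, where library 11 stood above its partners, and 1.12, 1.40 and 1.29 CPM with TGFβ. It had 1.76, 1.75 and 1.82 CPM with alisertib and 1.63, 1.70 and 1.53 CPM in untreated cells. Apart from library 11, the libraries with TGFβ lay below those without it. No comparison passed: the log2 fold change over untreated cells was -0.37 with both agents (edgeR adjusted p = 0.161) and -0.35 with TGFβ (edgeR adjusted p = 0.181). Without library 11 the first was -0.70 (edgeR adjusted p = 0.00235). For both agents over alisertib it was -0.50 (edgeR adjusted p = 0.0576), and -0.83 without library 11 (edgeR adjusted p = 0.000697). Leaving out library 11 removes the highest value of its group, which favours a fall. In both comparisons this was the only call among 6 fits that left out 1 library, with edgeR adjusted p up to 0.484 and 0.222. With the covariate both agents over alisertib passed too (-0.50, edgeR adjusted p = 0.0156).

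Divided by the deposited gene length, which allows levels of different genes to be set beside each other, CDKN1A made up 93.7% ± 0.7 of the CIP/KIP level in cells given both agents, 93.6% ± 0.7 with TGFβ, 75.1% ± 0.7 with alisertib and 68.9% ± 2.3 in untreated cells (SD, n = 3 each). The level of the 3 genes together was 92.0 ± 8.1, 90.5 ± 5.6, 32.7 ± 1.8 and 29.8 ± 2.5 CPM per kilobase in the same order of groups. The ratio of the CDKN1A level to the CDKN1B level per length was 16.3 ± 1.9 with both agents, 16.0 ± 1.8 with TGFβ, 3.30 ± 0.12 with alisertib and 2.39 ± 0.25 in untreated cells. The alisertib ratios, from 3.17 to 3.41, did not overlap the untreated ones, from 2.12 to 2.59.

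**Figure D1:**
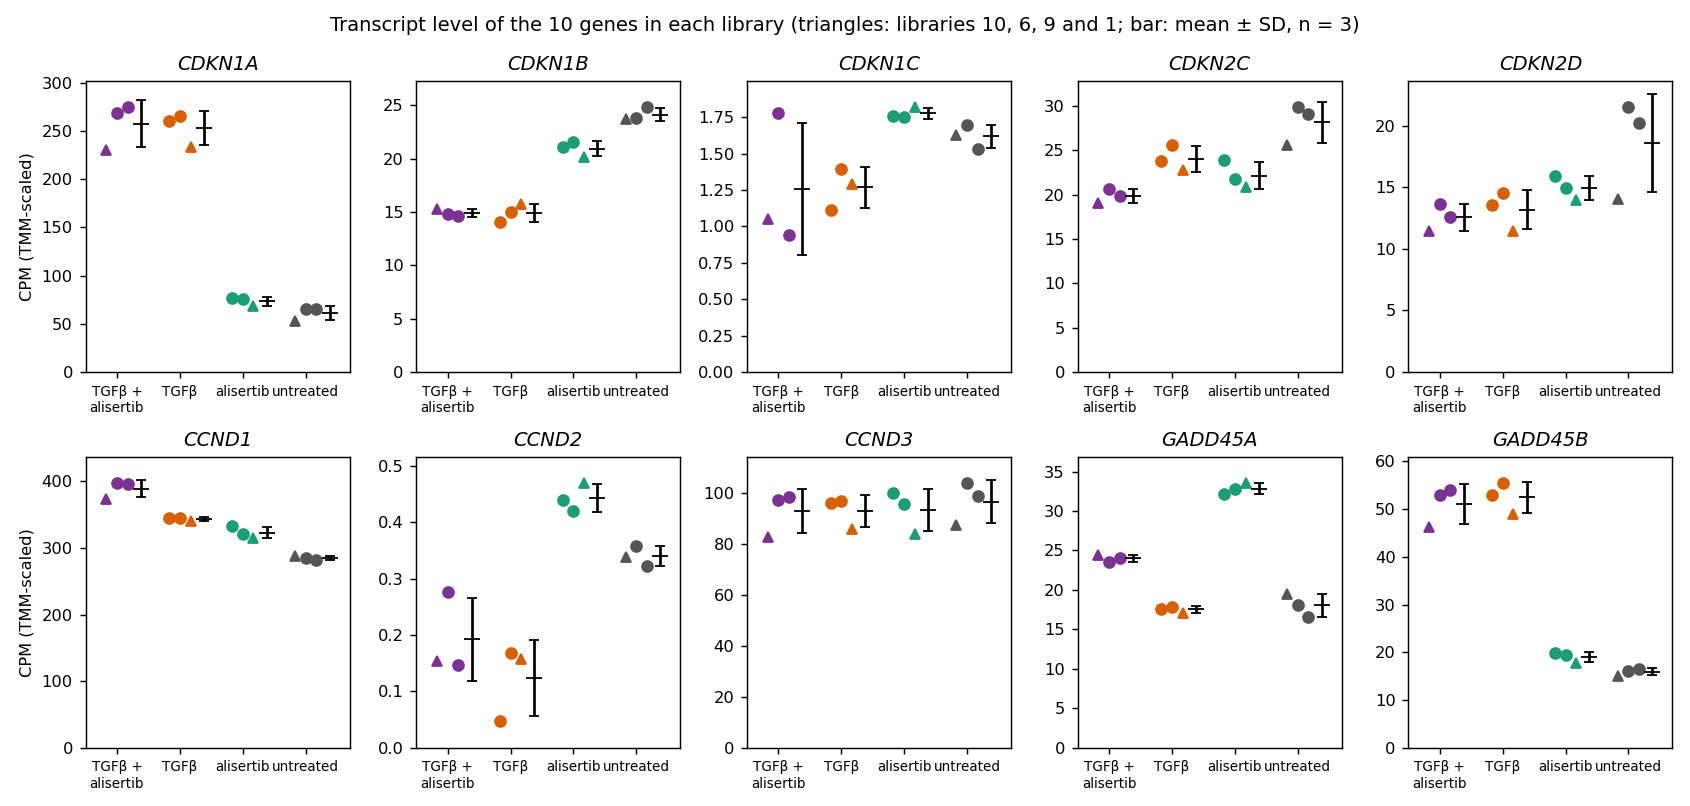
Level of each of the 10 genes in every library, in TMM-scaled CPM on linear axes that start at 0; points are libraries, triangles are libraries 10, 6, 9 and 1, and bars are the mean ± SD of 3. CDKN1A and GADD45B sit high in all libraries with TGFβ, CDKN1B sits low in the same libraries, and GADD45A is highest with alisertib alone.

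The INK4 genes that the line retains both fell with the 2 agents together. CDKN2C encodes p18, an inhibitor of CDK4 and CDK6. The gene (ENSG00000123080, hg19 chr1:51426417-51440305) had 19.1, 20.6 and 19.9 CPM in cells given both agents and 23.8, 25.6 and 22.7 CPM with TGFβ. It had 23.9, 21.8 and 20.9 CPM with alisertib and 25.6, 29.8 and 29.1 CPM in untreated cells. The libraries with both agents lay below those of every other group, the alisertib libraries lay below the untreated ones, and TGFβ libraries overlapped both. CDKN2C fell by 0.50 on the log2 scale with both agents over untreated cells (SE 0.08, edgeR adjusted p = 8.57e-05), by 0.35 with alisertib (SE 0.08, edgeR adjusted p = 0.0139) and by 0.23 with TGFβ (SE 0.08, edgeR adjusted p = 0.0265). When single libraries were left out, 4 of 6 fits ended the alisertib call, with edgeR adjusted p up to 0.0806, and 4 of 6 ended the TGFβ call, up to 0.115. For both agents over TGFβ it was -0.28 (95% interval -0.45 to -0.10, edgeR adjusted p = 0.0864), -0.29 without the 4 libraries (edgeR adjusted p = 0.00290) and -0.28 with the covariate (edgeR adjusted p = 7.42e-05). CDKN2C did not pass for both agents over alisertib (-0.16, edgeR adjusted p = 0.113). It did without the 4 libraries (-0.18, edgeR adjusted p = 0.0149) and with the covariate (-0.16, edgeR adjusted p = 0.00389).

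CDKN2D encodes p19, the INK4 protein whose level is known to follow the cell cycle. The gene (ENSG00000129355, hg19 chr19:10677138-10679735) had 11.5, 13.6 and 12.6 CPM in cells given both agents and 13.6, 14.5 and 11.5 CPM with TGFβ. It had 15.9, 15.0 and 14.0 CPM with alisertib and 14.0, 21.5 and 20.2 CPM in untreated cells. Untreated library 1, at 14.0 CPM, overlapped the TGFβ and alisertib libraries, and its partners lay above all others. CDKN2D fell by 0.56 with both agents over untreated cells (SE 0.14, edgeR adjusted p = 0.00427) and by 0.49 with TGFβ (SE 0.14, edgeR adjusted p = 0.0101). Leaving out untreated library 2 or 3, or TGFβ library 6, ended the TGFβ call, with adjusted p up to 0.0617. With alisertib it was -0.31 (95% interval -0.63 to 0.00, edgeR adjusted p = 0.219). Without the 4 libraries that value was -0.43 (edgeR adjusted p = 5.38e-05), and with the covariate -0.29 (edgeR adjusted p = 0.000155). Both agents over alisertib gave -0.25 (edgeR adjusted p = 0.166), against -0.24 without the 4 libraries (edgeR adjusted p = 0.00468) and -0.25 with the covariate (edgeR adjusted p = 0.000238). Per length, CDKN2D made up 58.2% ± 1.1 of the level of the pair with both agents, 54.7% ± 1.8 with TGFβ, 59.8% ± 0.4 with alisertib and 58.9% ± 3.6 in untreated cells (SD, n = 3 each).

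CCND1 encodes cyclin D1, the main partner of CDK4 and CDK6 in breast epithelium. It was the member that each agent raised and that both raised further. The gene (ENSG00000110092, hg19 chr11:69455855-69469242) had 374.1, 397.4 and 396.2 CPM in cells given both agents and 345.6, 345.9 and 340.6 CPM with TGFβ. It had 332.6, 321.3 and 315.5 CPM with alisertib and 288.5, 285.2 and 282.4 CPM in untreated cells. The 4 groups did not overlap in any pair, in the order both agents, TGFβ, alisertib, untreated. The log2 fold change over untreated cells was 0.45 with both agents (SE 0.04, edgeR adjusted p = 5.38e-07, 1.36-fold), 0.27 with TGFβ (SE 0.04, edgeR adjusted p = 8.97e-05) and 0.18 with alisertib (SE 0.04, edgeR adjusted p = 0.0170). It was 0.27 for both agents over alisertib (SE 0.04, edgeR adjusted p = 0.000105) and 0.18 for both agents over TGFβ (SE 0.04, edgeR adjusted p = 0.0370). The interaction, the effect of alisertib in the presence of TGFβ less its effect alone, was -0.00 (95% interval -0.13 to 0.13). When single libraries were left out, 5 of 6 fits ended the call for both agents over TGFβ, with edgeR adjusted p up to 0.207, and 3 of 6 ended the alisertib call, up to 0.0815. The annotated span overlaps ORAOV1, which had at most 4672 counts in a library against at least 27310 for CCND1, and the library kit did not mark the strand.

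CCND2, the cyclin D2 gene, was near the floor of detection. The gene (ENSG00000118971, hg19 chr12:4382938-4414516) had 16, 30 and 17 counts in cells given both agents, 5, 18 and 18 counts with TGFβ, 48, 44 and 47 counts with alisertib and 32, 37 and 33 counts in untreated cells. All libraries with TGFβ lay below all those without it. CCND2 fell by 1.44 on the log2 scale with TGFβ over untreated cells (SE 0.38, edgeR adjusted p = 0.00831) and by 1.20 with both agents over alisertib (SE 0.36, edgeR adjusted p = 0.0160). The second call was lost without library 10 or library 12 (edgeR adjusted p = 0.0501 and 0.0685), and also without libraries 10, 6, 9 and 1 together (-1.03, edgeR adjusted p = 0.0620). For both agents over untreated cells it was -0.82 (95% interval -1.66 to 0.02, edgeR adjusted p = 0.0909), and -1.17 without library 11 (edgeR adjusted p = 0.0382). Library 11 had the highest count of its group. The other fits that left out 1 library gave no call in that comparison (edgeR adjusted p up to 0.253).

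CCND3, the cyclin D3 gene (ENSG00000112576, hg19 chr6:41902671-42018095), had 82.7, 96.9 and 98.3 CPM in cells given both agents and 96.0, 96.8 and 85.7 CPM with TGFβ. It had 99.8, 95.5 and 83.9 CPM with alisertib and 87.2, 103.6 and 98.4 CPM in untreated cells. The low library of each group was 10, 6, 9 or 1, and all groups overlapped. No comparison passed, and the 95% interval of the log2 fold change over untreated cells was -0.25 to 0.14 with both agents, -0.25 to 0.14 with TGFβ and -0.25 to 0.15 with alisertib. Per length CCND1 made up 82.2% ± 0.9 of the D cyclin level with both agents, 80.3% ± 0.9 with TGFβ, 79.2% ± 1.1 with alisertib and 76.4% ± 1.7 in untreated cells (SD, n = 3 each), and CCND2 at most 0.0807% in any library. CCND1 and CDKN1A both rose with TGFβ, by unequal amounts. The ratio of the CCND1 level to the CDKN1A level per length was 0.938 ± 0.061 with both agents, 0.843 ± 0.053 with TGFβ, 2.73 ± 0.13 with alisertib and 2.90 ± 0.38 in untreated cells.

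**Figure D2:**
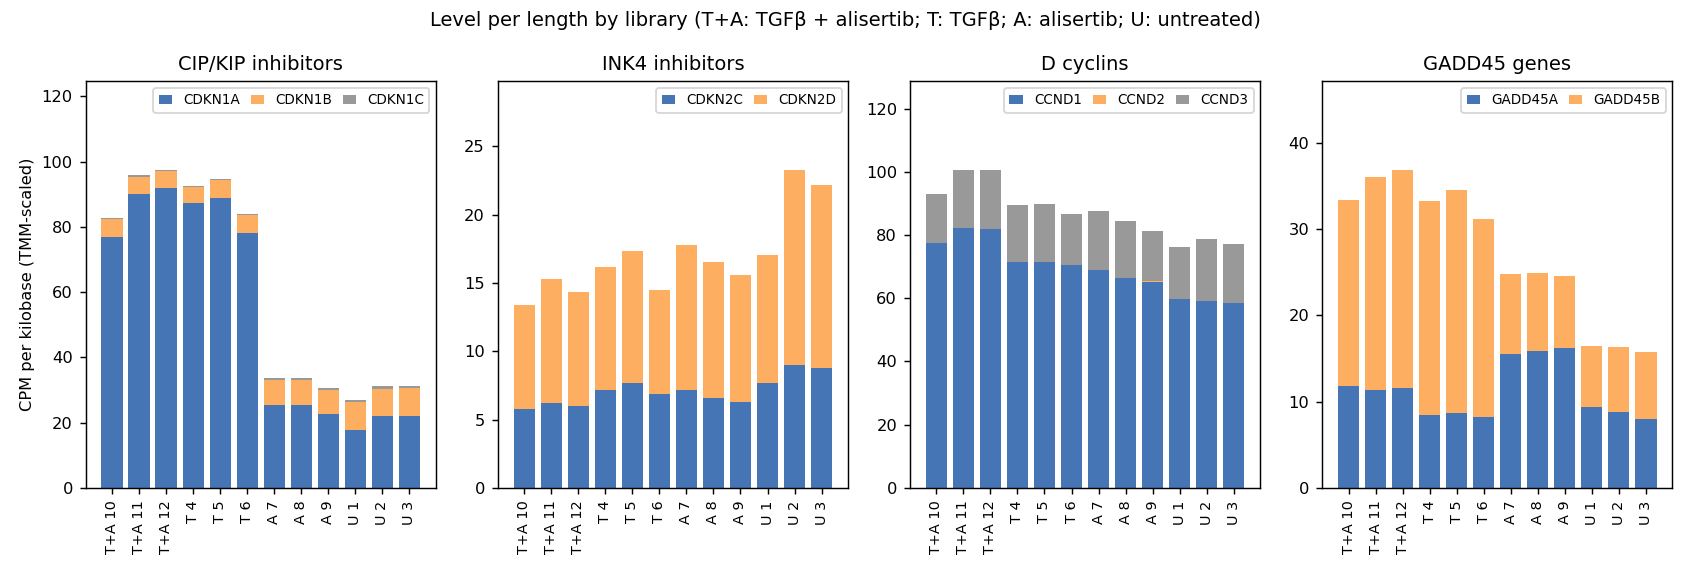
Stacked levels per kilobase (TMM-scaled CPM per kilobase of the deposited length, linear axes from 0) of the members of each family in the 12 libraries, with cells given both agents at the left and untreated cells at the right. CDKN1A fills 93.7% of the CIP/KIP bars with both agents and 68.9% in untreated cells, and the larger share of the GADD45 bars belongs to GADD45B with TGFβ and to GADD45A without it.

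The GADD45 genes separated the agents. GADD45A, known as a G2/M checkpoint gene, was the member with the strongest response to alisertib. The gene (ENSG00000116717, hg19 chr1:68150744-68154021) had 24.4, 23.5 and 24.1 CPM in cells given both agents and 17.6, 17.9 and 17.1 CPM with TGFβ. It had 32.2, 32.8 and 33.5 CPM with alisertib and 19.5, 18.1 and 16.6 CPM in untreated cells. The alisertib libraries lay above all others, those with both agents came next, and the TGFβ and untreated libraries overlapped. With alisertib over untreated cells the log2 fold change was 0.86 (SE 0.06, edgeR adjusted p = 5.65e-06, 1.82-fold), the 8th smallest p-value of the 20571 genes in that comparison. It was 0.45 for both agents over TGFβ (SE 0.06, edgeR adjusted p = 0.00170, 1.37-fold) and 0.41 for both agents over untreated cells (SE 0.06, edgeR adjusted p = 0.000113). GADD45A fell by 0.45 for both agents over alisertib (SE 0.06, edgeR adjusted p = 4.75e-05), while TGFβ over untreated cells gave -0.04 (95% interval -0.19 to 0.10, edgeR adjusted p = 0.617).

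The alisertib effect on GADD45A was smaller with TGFβ than without it, by 0.41 on the log2 scale (SE 0.09, unadjusted p = 0.000441 in edgeR's quasi-likelihood test), and this difference did not pass over all genes (adjusted p = 0.0881). Without libraries 10, 6, 9 and 1 the interaction was -0.49 (edgeR adjusted p = 0.000861), with the covariate -0.41 (edgeR adjusted p = 0.000203), and without untreated library 1 alone -0.47 (edgeR adjusted p = 0.0138). That last fit was the only 1 of 12 leaving out a single library to call it, with edgeR adjusted p up to 0.255.

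GADD45B, an immediate early target of TGFβ and SMAD signalling, followed TGFβ. The gene (ENSG00000099860, hg19 chr19:2476120-2478257) had 46.2, 52.9 and 54.0 CPM in cells given both agents and 52.9, 55.4 and 49.0 CPM with TGFβ. It had 19.9, 19.4 and 17.8 CPM with alisertib and 15.1, 16.2 and 16.5 CPM in untreated cells. As for CDKN1A, the TGFβ libraries lay far above the rest, and the alisertib libraries lay above the untreated ones. The log2 fold change over untreated cells was 1.68 with both agents (SE 0.07, edgeR adjusted p = 2.39e-10, 3.21-fold) and 1.72 with TGFβ (SE 0.07, edgeR adjusted p = 1.88e-10, 3.30-fold). It was 1.42 for both agents over alisertib (SE 0.07, edgeR adjusted p = 1.77e-09), -0.04 for both agents over TGFβ (95% interval -0.21 to 0.13) and 0.26 for alisertib over untreated cells (95% interval 0.09 to 0.43, edgeR adjusted p = 0.0502). The last passed without the 4 libraries (0.28, edgeR adjusted p = 0.000401) and with the covariate (0.26, edgeR adjusted p = 6.63e-05).

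Per length the ratio of GADD45B to GADD45A was 2.06 ± 0.20 with both agents, 2.90 ± 0.11 with TGFβ, 0.562 ± 0.043 with alisertib and 0.857 ± 0.106 in untreated cells (SD, n = 3 each), with no overlap between any of the 4 groups. GADD45B was the larger of the pair in all libraries with TGFβ, and GADD45A in all without it.

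**Figure D3:**
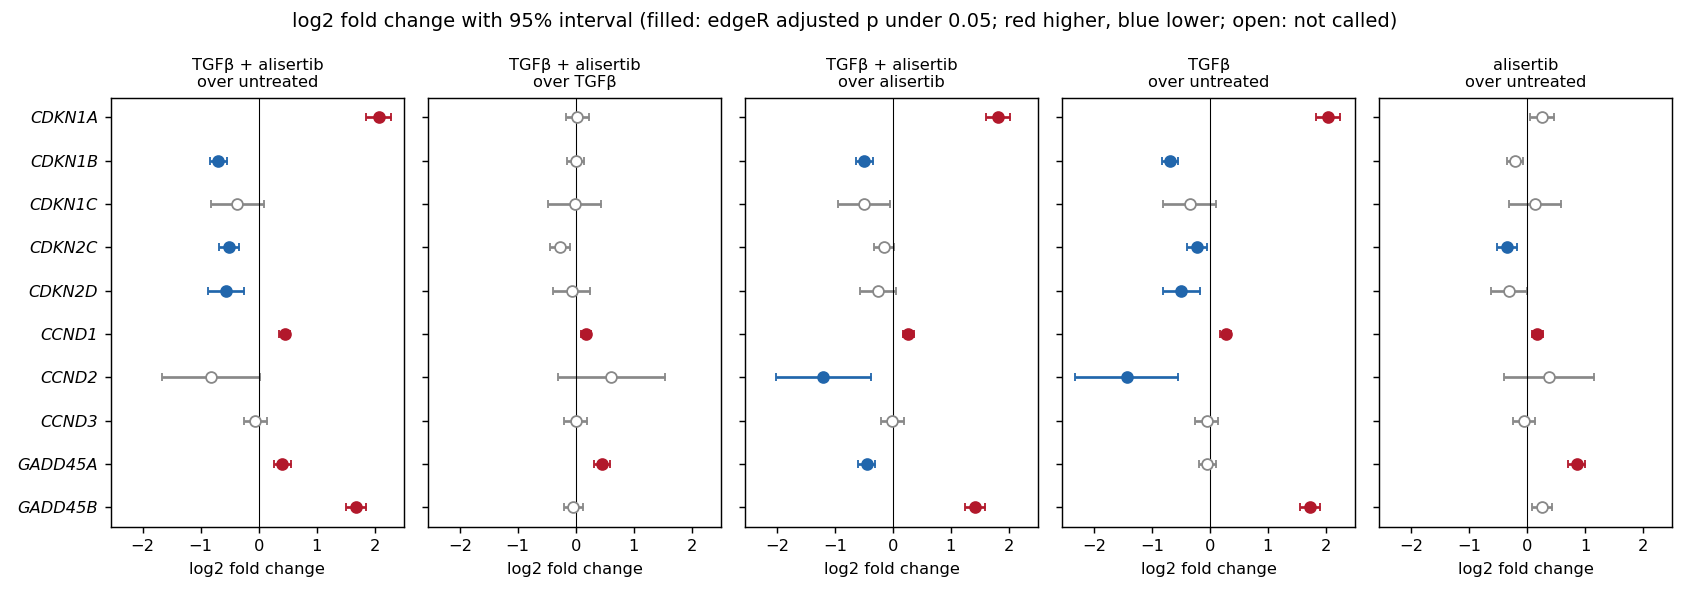
log2 fold change of each gene (points) with its 95% interval (bars) in the 5 pairwise comparisons, with filled points for adjusted p under 0.05 in edgeR's quasi-likelihood test. CDKN1A at 2.07, 1.81 and 2.04 and GADD45B at 1.68, 1.42 and 1.72 lead the 3 panels that add TGFβ, and GADD45A at 0.86 leads alisertib over untreated cells.

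Counted together, 7 of the 10 genes passed for both agents over untreated cells, 4 higher and 3 lower, against 39.7% of all genes tested (19.4% higher and 20.3% lower). For TGFβ over untreated cells 7 passed, 3 higher and 4 lower, against 38.6% of all genes (18.5% higher and 20.1% lower), and for both agents over alisertib 6 passed, 3 higher and 3 lower, against 38.4% (19.4% higher and 19.0% lower). Alisertib over untreated cells changed 3, with GADD45A and CCND1 higher and CDKN2C lower, against 6.74% of all genes (3.55% higher and 3.19% lower), and both agents over TGFβ changed 2, CCND1 and GADD45A, both higher, against 2.08% (1.19% higher and 0.890% lower). These comparisons share groups, so their counts are not independent of each other, and the 10 genes were chosen with earlier results of these data known. The median absolute log2 fold change of the 10 genes was 0.53 with both agents over untreated cells, 0.42 with TGFβ and 0.26 with alisertib, against 0.27, 0.27 and 0.13 over all genes in the same comparisons. Values of the groups did not overlap, in either direction, for 8 of the 10 genes with both agents over untreated cells (45.7% of all genes), for 6 with TGFβ (46.4%) and for 8 with alisertib (21.6%). The same held for 8 with both agents over alisertib (50.3%) and for 3 with both agents over TGFβ (20.4%). Fits of the 2 groups compared, which have fewer libraries for the spread, ended the calls of CDKN2C for TGFβ and for alisertib (edgeR adjusted p = 0.0640 and 0.0644), of CDKN2D for TGFβ (0.0551), and of CCND1 for alisertib (0.110) and for both agents over TGFβ (0.0765).

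The 4 libraries moved calls for alisertib over untreated cells, for both agents over TGFβ, for both agents over alisertib and in the interaction, while for both agents and for TGFβ over untreated cells no call of the 10 genes differed without them or with the covariate. Without them 7 of the 10 genes passed for alisertib over untreated cells, against 24.5% of all genes, and with the covariate also 7, against 25.1%; both added CDKN1A, GADD45B, CDKN1B and CDKN2D. For both agents over TGFβ each of these fits called 3, with CDKN2C as the addition, against 6.92% and 14.8% of all genes. For both agents over alisertib 7 passed without the 4 libraries, against 48.8% of all genes, and 9 with the covariate, against 53.8%. The first of these fits added CDKN2C and CDKN2D and lost CCND2, and the second added CDKN1C, CDKN2C and CDKN2D.

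In the test of the interaction none of the 10 genes passed in the fit of all libraries, against 0.282% of all genes. Of the 10, CDKN1B, GADD45A and GADD45B had an unadjusted p under 0.05 in edgeR's quasi-likelihood test (0.0347, 0.000441 and 0.0114), and DESeq2 called 1, GADD45A (adjusted p = 0.00340). Without the 4 libraries CDKN1A (-0.18, edgeR adjusted p = 0.0441), GADD45A and GADD45B (-0.30, edgeR adjusted p = 0.0174) passed, against 3.59% of all genes. The same 3 passed with the covariate, where CDKN1A gave -0.24 (edgeR adjusted p = 0.000405) and GADD45B -0.30 (edgeR adjusted p = 0.00260), against 3.12%. For each of the 3 the alisertib effect was smaller with TGFβ than without it.

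**Figure D4:**
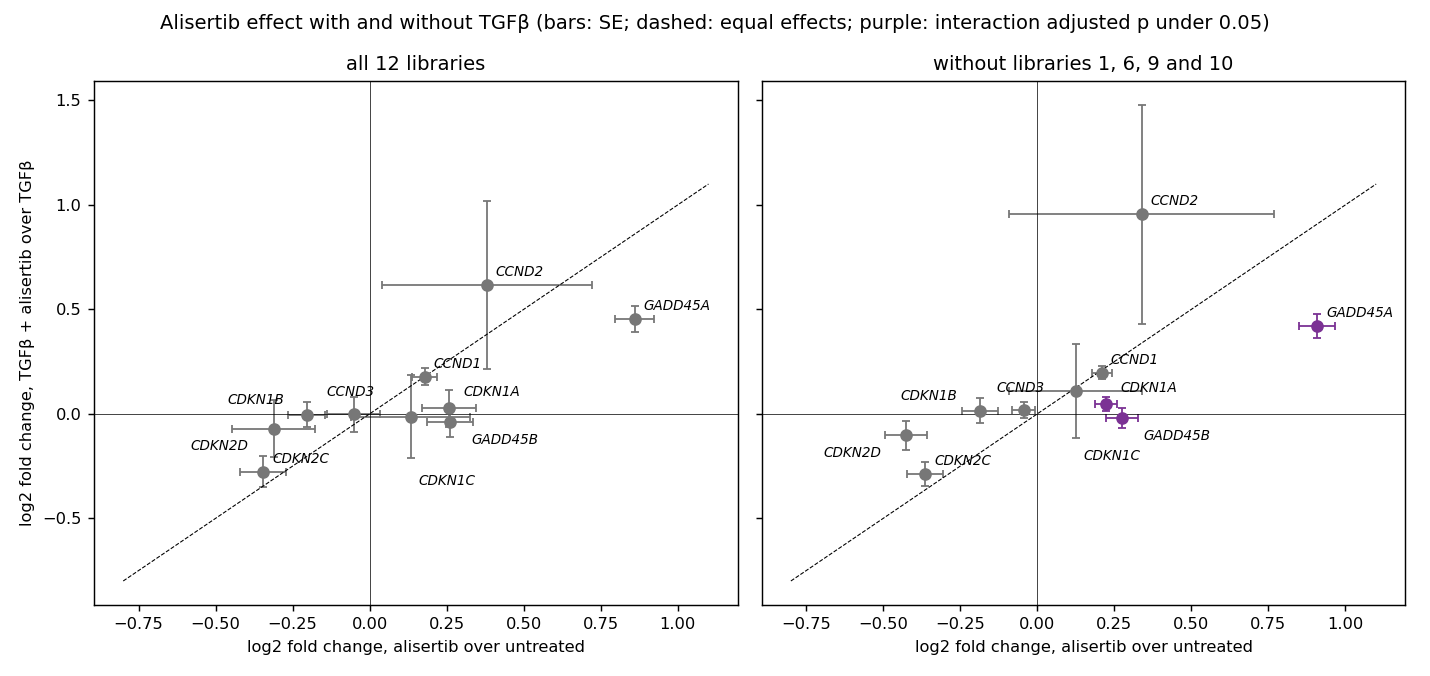
log2 fold change of both agents over TGFβ (vertical axis) against that of alisertib over untreated cells (horizontal axis) for the 10 genes, with SE bars and a dashed line of equal effects, for all 12 libraries (left) and without libraries 10, 6, 9 and 1 (right). GADD45A lies below the line at 0.86 and 0.45 at the left, and the purple points at the right, CDKN1A, GADD45A and GADD45B, passed the test of the interaction in that fit.

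The kinases and cyclins that the members act on were read from lists of other G1 genes. Of 10 CDKs, cyclins and activators of G1 and S phase, 1 rose and 7 fell with both agents over untreated cells, 2 rose and 6 fell with TGFβ, and none rose and 1 fell with alisertib, with medians of log2 fold change of -0.30, -0.16 and -0.07 against 0.00, -0.01 and -0.01 over all genes. Of all genes tested 19.4% rose and 20.3% fell with both agents, 18.5% and 20.1% with TGFβ, and 3.55% and 3.19% with alisertib. CDK6, a partner of the D cyclins, rose to 226.7 ± 6.7 CPM with both agents and 197.5 ± 6.7 CPM with TGFβ, against 119.4 ± 6.0 CPM with alisertib and 109.9 ± 7.3 CPM in untreated cells (SD, n = 3 each); the log2 fold change with TGFβ was 0.85 (edgeR adjusted p = 1.80e-08). CCNA2, the S phase cyclin, fell by 0.68 with TGFβ (edgeR adjusted p = 1.04e-06), and CDC25A, the phosphatase that activates CDK2, fell by 0.57 (edgeR adjusted p = 3.80e-05). CCNE2, the cyclin E2 gene, was the 1 that fell with alisertib (-0.35, edgeR adjusted p = 0.0129), and it also fell for both agents over TGFβ (-0.45, edgeR adjusted p = 0.00593). The G2 and M phase genes CCNB1, CCNB2 and CDK1 all fell with TGFβ, with log2 fold changes of -0.46, -0.50 and -0.35 (edgeR adjusted p at most 0.000234), and none of them passed with alisertib.

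Downstream of the kinases, of 18 pocket proteins, E2F factors and DREAM subunits 4 rose and 10 fell with both agents over untreated cells, 4 rose and 6 fell with TGFβ, and 1 rose and 5 fell with alisertib. The shares of all genes called in either direction were 39.7%, 38.6% and 6.74% in the same order. E2F7, a repressor of E2F targets, rose to 297.3 ± 3.9 CPM with both agents and 268.2 ± 7.1 CPM with TGFβ, against 132.7 ± 3.6 CPM with alisertib and 118.8 ± 4.0 CPM in untreated cells. Its close relative E2F8 went the other way, with 15.4 ± 0.6, 20.3 ± 0.6, 30.1 ± 0.2 and 38.5 ± 2.3 CPM in the same order, as did the activator E2F2 with 4.10 ± 0.17, 5.98 ± 0.23, 8.40 ± 0.09 and 11.5 ± 0.9 CPM. With TGFβ over untreated cells the log2 fold changes were 1.18 for E2F7, -0.92 for E2F8 and -0.94 for E2F2 (edgeR adjusted p at most 2.04e-07). E2F8 and E2F2 fell with alisertib too, by 0.36 and 0.45 (edgeR adjusted p = 0.00194 and 0.00289), and fell for both agents over TGFβ, by 0.40 and 0.55 (edgeR adjusted p = 0.00275 and 0.00239). RBL1, which encodes the pocket protein p107, fell by 0.36 with alisertib (edgeR adjusted p = 0.0127) and by 0.54 with TGFβ (edgeR adjusted p = 5.72e-05). E2F1 fell by 0.39 for both agents over TGFβ (edgeR adjusted p = 0.0279).

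Among 17 regulators of the members by transcription or turnover, 5 rose and 8 fell with both agents over untreated cells, 4 rose and 6 fell with TGFβ, and 2 rose and 3 fell with alisertib. In these comparisons 39.7%, 38.6% and 6.74% of all genes were called in either direction. SMAD3 and SMAD2, the factors that TGFβ receptors activate, fell by 0.68 and 0.63 with TGFβ (edgeR adjusted p = 2.66e-09 and 7.19e-06). SKP2, the subunit that marks p27 for destruction, fell by 0.36 with alisertib (edgeR adjusted p = 0.00161) and by 0.29 with TGFβ (edgeR adjusted p = 0.000915). It fell by 0.63 with both agents over untreated cells (edgeR adjusted p = 5.22e-07). With alisertib SP1, a GC box factor, fell by 0.21 (edgeR adjusted p = 0.0142), and MYC, a repressor of CDKN1A, rose by 0.20 (edgeR adjusted p = 0.0270).

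Of the 6 kinases known to act downstream of GADD45 proteins, none rose over untreated cells, where 2 fell with both agents, 3 with TGFβ and 1 with alisertib. Of all genes 20.3%, 20.1% and 3.19% fell in these comparisons. Of the same kinases 3 fell and 1 rose for both agents over alisertib, against 19.0% and 19.4% of all genes. The 1 that rose was MAP3K4 (0.19, edgeR adjusted p = 0.0386). Those that fell were MAP2K6 (-2.25, edgeR adjusted p = 9.17e-06), MAP2K3 (-0.37, edgeR adjusted p = 0.00611) and MAPK8 (-0.35, edgeR adjusted p = 0.00166). MAP2K6, an activator of p38, fell in each of the comparisons with untreated cells: it had 12 to 23 counts with both agents, 30 to 35 with TGFβ and 62 to 82 with alisertib, against 125 to 131 in untreated cells. Its log2 fold change over untreated cells was -3.12 with both agents (SE 0.26, edgeR adjusted p = 1.85e-07), -2.11 with TGFβ (SE 0.23, edgeR adjusted p = 4.30e-06) and -0.87 with alisertib (SE 0.21, edgeR adjusted p = 0.0265).

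**Figure D5:**
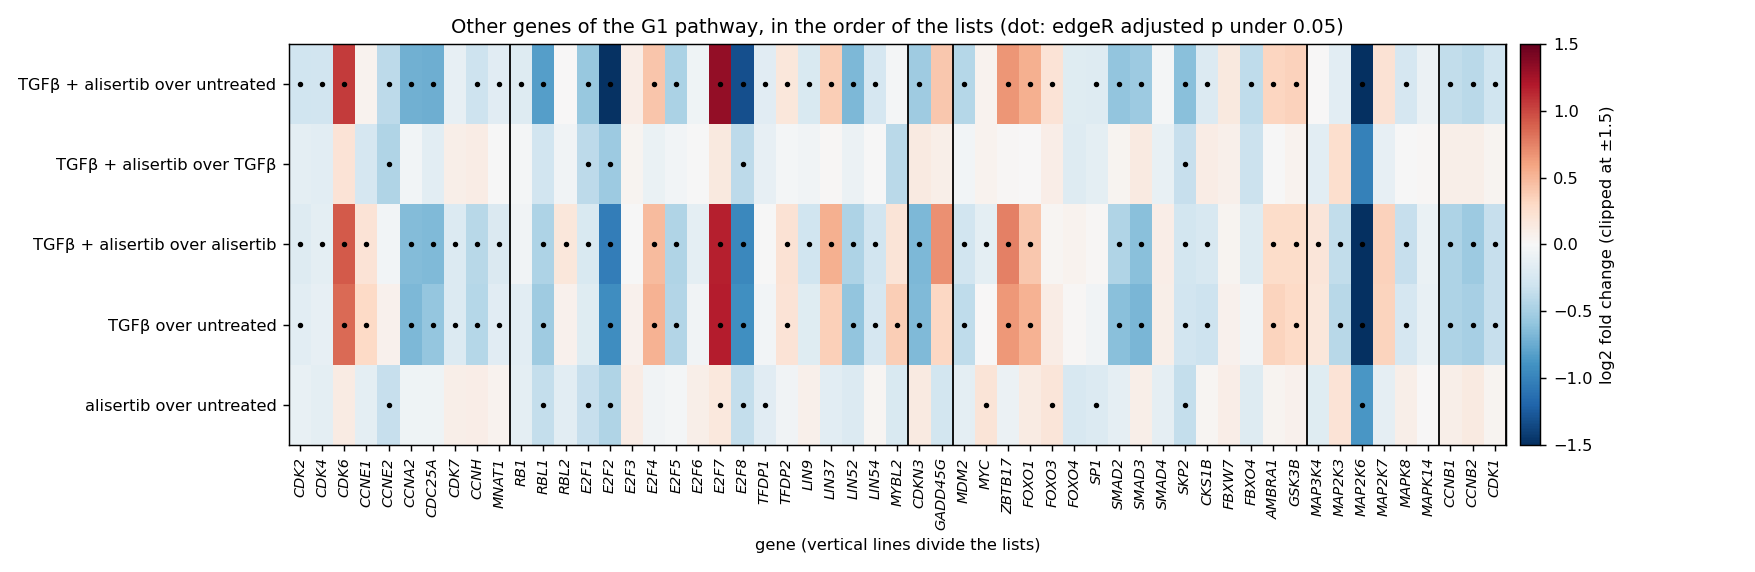
log2 fold change (colour, clipped at ±1.5) of tested genes of the other G1 lists in the 5 pairwise comparisons, with a dot where the adjusted p was under 0.05 and vertical lines between lists. CDK6 and E2F7 stand out as higher and E2F2, E2F8 and MAP2K6 as lower in the 3 rows that add TGFβ.

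Over the 12 libraries the genes most like each member in log2 CPM were found among 10620 genes of at least 5 CPM with the 10 members left out, as a description of libraries that share treatments. Among the 3 genes most like CDKN1A were FSTL3 and TUBA4A (Pearson r 0.999 for each), and among those most like GADD45B were SEMA7A (r 0.999) and MMP9 (r 0.998). CDKN1A and GADD45B correlated with each other at 0.999, and CDKN1A with CDKN1B at -0.976. CDKN2C was most like E2F1, PHF19 and MCM2 (r 0.980 to 0.978), and GADD45A like AOX1, CAPN2 and GPX3 (r 0.986 to 0.966). CCND1 was most like LAPTM5, G0S2 and ZFAND2A (r 0.988 to 0.979) and CDKN1B like KIAA1217, SERPINB1 and CTDSPL (r 0.994 to 0.992). CCND3 (BST2, r 0.961) and CDKN2D (BCAT2, r 0.982) were both low in libraries 10, 6, 9 and 1, whose part in their likeness to other genes was not tested.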

How the data were processed

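The 12 sequenced libraries were made from total RNA. Per the labels' protocols, miRNeasy columns and the unstranded TruSeq RNA v2 kit were used. The submitters' processing notes name hg19 and the tools TopHat, featureCounts, Subread and bcl2fastq, while tool versions, settings and the gene annotation are not given in the sources used here. Raw read counts per gene were deposited by the authors, with RPKM values that the authors computed from them and that were not tested. Gene length in the deposited table was used for levels per kilobase. Depth was 93701658 to 120619368 counts per library.

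The deposited counts went into edgeR 4.0.16 (R 4.3.3) with filterByExpr, TMM factors, 1 robust quasi-likelihood fit of 4 groups over 12 libraries with 8 residual degrees of freedom, 5 pairwise comparisons and the interaction. p-values were adjusted over all 20571 tested genes by Benjamini-Hochberg, and each SE is the size of the log2 fold change divided by the root of F. The 95% intervals use that SE with a t distribution of 8 degrees of freedom. The test also draws on spread shared over genes, so these intervals are wider than its unadjusted p-values imply. The fit was also run on simulated counts drawn independently for each library. They lacked the deviation that libraries 1, 6, 9 and 10 share, so that run cannot speak to it. Alternatives were RLE factors, DESeq2 1.42.0, no filter, fits of the 2 groups compared, the first component of the residuals as a covariate, leaving out libraries 1, 6, 9 and 10 together, and leaving out each library in turn. Likeness used log2 CPM with a prior count of 2. All 10 members are named, with the 3 genes of each G1 list that had the smallest adjusted p in a comparison, of which some are given only by counts. Members, lists and alternatives were chosen with earlier results of these data known. PECAM1, an endothelial marker, was not analysed here, and some genes within the lists and the rule are counted but not reported here by name. Sequences and motifs come from RefSeq's promoter table for GRCh38.p14, a newer build than that of the counts, and no coordinates were converted.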

Additional observations from a re-analysis of the deposited data

How the results depend on the processing

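No paired analysis was possible because the replicate numbers run from 1 to 12 through the series and are not shared between groups. RLE factors moved no count of calls by over 1.5 times, and no alternative scaling moved the median of all genes by over 0.1 on the log2 scale. Genes of the 10 called for alisertib over untreated cells (3) became 5 by DESeq2, 1 in a fit of the 2 groups, and 7 with the covariate and without libraries 1, 6, 9 and 10; for both agents over TGFβ (2) 1 without a filter and 1 with the 2 groups alone; for the interaction (0) 1 by DESeq2 and 3 with the covariate and without the 4 libraries. Over all genes, calls for both agents over TGFβ (428) became 705 by DESeq2, 3052 with the covariate and 1434 without the 4 libraries; for alisertib (1387) 623, 5170 and 5073 with the 2 groups, the covariate and without the 4 libraries; for the interaction (58) 181 by DESeq2, 105 without a filter, 641 with the covariate and 744 without the 4 libraries. The cause was not tested. Without the 4 libraries the uncalled log2 fold changes of CDKN1B (0.016), CDKN1C (0.11) and CCND3 (0.017) for both agents over TGFβ and of GADD45A (0.033) for TGFβ changed sign.

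Leaving out 1 library at a time, genes of the 10 called were 7 to 9 for both agents over untreated cells, 1 to 2 for both agents over TGFβ, 5 to 7 for both agents over alisertib, 5 to 7 for TGFβ over untreated cells, 1 to 5 for alisertib over untreated cells and 0 to 1 for the interaction. Over all genes such fits called 6680 to 8050 for both agents over untreated cells, 153 to 243 for both agents over TGFβ, 6239 to 7974 for both agents over alisertib, 6511 to 7582 for TGFβ over untreated cells, 718 to 2598 for alisertib over untreated cells and 19 to 166 for the interaction. Log2 fold changes that changed sign in some of these fits, none of them called with all libraries, ranged as follows: for both agents over untreated cells, CCND3 -0.125 to 0.0180; for both agents over TGFβ, CDKN1A -0.0335 to 0.102, CDKN1B -0.0442 to 0.0350, CDKN1C -0.348 to 0.146, CDKN2D -0.163 to 0.00449, CCND3 -0.0602 to 0.0718, GADD45B -0.0946 to 0.0264; for both agents over alisertib, CCND3 -0.0904 to 0.0696; for TGFβ over untreated cells, CCND3 -0.122 to 0.00355, GADD45A -0.0989 to 0.0138; for alisertib over untreated cells, CCND3 -0.119 to 0.0243; for the interaction, CDKN1C -0.482 to 0.0100, CCND1 -0.0357 to 0.0262, CCND2 -0.146 to 0.506, CCND3 -0.0376 to 0.123.

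Counts of CCND2 were under 50 in every library, and the SE of the interaction was 0.06 to 0.52 over the 10 genes.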

Other observations

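Of the other members of the same families, CDKN2A had at most 2 counts in a library and CDKN2B had 0 in all 12, so neither was tested. GADD45G, the third GADD45 gene, had 16 to 21 counts with both agents, 6 to 24 with TGFβ and 8 to 13 with alisertib, against 11 to 14 in untreated cells, and passed in no comparison. CDKN3, a phosphatase that acts on CDK2 and not an inhibitor protein of the CIP/KIP or INK4 kind, had 47.0 ± 1.7 CPM with both agents, 43.0 ± 1.1 CPM with TGFβ, 74.7 ± 2.5 CPM with alisertib and 68.2 ± 7.9 CPM in untreated cells (SD, n = 3 each). It fell by 0.67 on the log2 scale with TGFβ over untreated cells (edgeR adjusted p = 2.65e-06), while alisertib gave 0.13 (edgeR adjusted p = 0.321).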
